A study of Macaca mulatta with 12 samples.

Results

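Voltage-gated potassium channel genes were followed across the cell classes and neuronal sub-clusters of the rhesus macaque (Macaca mulatta) amygdala. The set was 9 genes, KCNA1, KCNB2, KCNC1, KCNC2, KCND2, KCNQ5, KCNH1, KCNH5 and KCNH7, out of 19708 gene rows, and all 9 were present in the deposited table. The amygdala, deep in the temporal lobe, is known for its part in learning about threat and reward. The study measured RNA in single nuclei from surgically removed, frozen amygdala in order to sort its cells into molecular types. The 12 labelled samples, which their titles number as 4 under each of 3 amygdala numbers, formed 1 group, amygdala, with no treatment, genotype, time or age given, so every comparison is between kinds of cells.

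Voltage-gated potassium channels open when the membrane depolarises, let potassium leave the cell and so end the action potential and set how soon the next can follow. Each channel is built from several such subunits, and the subunit families differ in the voltage at which they open and in how fast they close. KCNA1 encodes a Shaker-type subunit that opens near threshold and is known from axons, and KCNB2 a delayed rectifier. KCNC1 and KCNC2 encode subunits that open only at strong depolarisation and close quickly, which lets fast-spiking interneurons fire at high rates. KCND2 carries the transient A-type current of dendrites, KCNQ5 contributes to the slow M-current that muscarinic receptors close, KCNH1 and KCNH5 are ether-à-go-go channels, and KCNH7 is a channel of the related erg branch. These roles are known mainly from rodent and human work.

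The table held 26400 nuclei with 151526883 unique molecular identifiers (UMIs), each standing for 1 captured transcript, at a median of 5053.5 UMIs per nucleus. Barcodes carried 3 suffixes, called barcode sets, with between 8299 and 9201 nuclei each, and no label tied a set to an amygdala number, animal or sample. Of 26332 barcode sequences 68 occurred in more than 1 set. The pool therefore counted as 1 sample, and no difference given here has a replicate error or a test. Levels are UMIs of a gene summed over the nuclei of a class and divided by all UMIs of that class, given on the usual CPM scale where 10000 CPM is 1% of a class's UMIs, with exact 95% Poisson intervals in brackets that cover counting error only, and the 3 sets show only whether a direction recurs. Nuclei were clustered without the 9 genes and named from marker genes, so that each class name stands for clusters resembling that type. Named classes were 11378 excitatory neurons, 4138 inhibitory neurons, 6008 astrocytes, 799 ependymal cells, 486 oligodendrocytes, 359 oligodendrocyte precursors, 276 microglia, 191 mural cells, 108 endothelial cells and 76 committed oligodendrocyte precursors, with 719 nuclei unnamed. Median depth was 7810 UMIs in excitatory and 5600 in inhibitory neurons, and between 1293.5 and 2569.5 in the other classes. Summed inhibitory markers reached 11138 CPM in inhibitory neurons and 170 in excitatory neurons. The excitatory markers separated less, at 1989 CPM in excitatory and 697 in inhibitory neurons, and the largest excitatory cluster, 5387 nuclei high in PROX1, had SLC17A7 at 109 CPM and SV2B at 50.5 CPM, not far above the 73.7 and 39.4 CPM in astrocytes. Results between the neuron classes are therefore also given without that cluster.

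Among the 9 genes KCNC2 differed most between excitatory and inhibitory neurons, followed by KCNA1. KCNC2 was 9.14-fold lower in excitatory than in inhibitory neurons, KCNC1 was 2.13-fold lower and KCNH7 2.01-fold lower, while KCNA1 was 4.05-fold higher in excitatory neurons. A gene was called when the levels differed at least 2-fold. By that rule 1 of the 9 genes was higher in excitatory neurons, against 8.79% of 7440 measured genes that had been kept out of clustering, and 3 of 9 were lower, against 8.39%. The median log2 ratio of the 9 genes was 0.47, and that of all such genes was -0.09.

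KCNC2 had 280, 270 and 284 CPM in excitatory neurons of the 3 barcode sets, against 2530, 2505 and 2587 CPM in inhibitory neurons. The 2 ranges lay far apart in every set, and the pooled levels were 278 CPM [275 to 281] in excitatory and 2540 CPM [2520 to 2560] in inhibitory neurons, a log2 ratio of -3.19 [-3.21 to -3.17]. A UMI of KCNC2 was found in 73.8% of excitatory nuclei and 98.9% of inhibitory nuclei. Excitatory nuclei were the deeper ones, and once every nucleus had been thinned to 1000 UMIs KCNC2 was found in 22.9% of excitatory and 81.9% of inhibitory nuclei. Thinning left out 27 excitatory and 2 inhibitory nuclei as too shallow, and 1 to 528 in each of the other named classes. In oligodendrocytes, astrocytes, microglia, ependymal and endothelial cells and both precursor classes, which are not known for this channel, KCNC2 lay between 90.6 and 177 CPM and its thinned share between 8.0 and 17.0%. An unnamed cluster of 500 shallow nuclei, with a median of 544 UMIs, had 562 CPM of KCNC2. RNA free in the suspension reaches all droplets, and its part in the glial values was not tested.

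KCNC1, whose product pairs with that of KCNC2 in fast-spiking cells, had 34.8, 38.1 and 34.0 CPM in excitatory neurons of the 3 sets, against 72.2, 76.5 and 79.3 CPM in inhibitory neurons. The excitatory values were lower in all 3 sets without overlap. The pooled log2 ratio was -1.09 [-1.17 to -1.01], close to the 2-fold line. KCNH7 had 39.5, 38.5 and 35.9 CPM in excitatory neurons, against 80.9, 75.9 and 71.8 CPM in inhibitory neurons, and again the groups did not overlap. Its log2 ratio of -1.01 [-1.09 to -0.92] fell just inside the threshold. With each nucleus weighted equally the log2 ratios were -0.88 for KCNC1 and -0.81 for KCNH7, and with nuclei thinned to 1000 UMIs they were -0.78 and -0.77, so that neither gene was called there.

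KCNA1 was the gene that leaned the other way. It had 31.7, 32.0 and 32.8 CPM in excitatory neurons of the 3 sets, against 6.9, 7.4 and 9.6 CPM in inhibitory neurons, a log2 ratio of 2.02 [1.81 to 2.24] from 3054 and 196 UMIs. All excitatory values were above all inhibitory ones. The level in excitatory neurons nevertheless did not stand clear of most glial and vascular classes, which ranged from 14.8 CPM in oligodendrocytes to 31.4 CPM in endothelial cells, and inhibitory neurons had the lowest level, 7.93 CPM [6.9 to 9.1], with an interval that overlapped those of oligodendrocytes and committed precursors. The part of free RNA in the glial levels was not tested.

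The other 5 genes differed by less than 2-fold between the neuron classes. KCND2 came nearest, at 1291 CPM in excitatory and 698 CPM in inhibitory neurons, a log2 ratio of 0.89 [0.86 to 0.91] with 0.94, 0.91 and 0.81 in the sets. KCNH1, KCNQ5 and KCNB2 had log2 ratios of 0.75, 0.64 and 0.47, each positive in all 3 sets. KCNH5 was level between the classes, with 38.7 CPM in excitatory and 39.2 CPM in inhibitory neurons and a log2 ratio of -0.02 [-0.12 to 0.09]. Without the PROX1-high cluster the same 4 genes were called, with log2 ratios of -3.19 for KCNC2, -1.45 for KCNC1, -1.38 for KCNH7 and 2.15 for KCNA1.

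**Figure D1:**
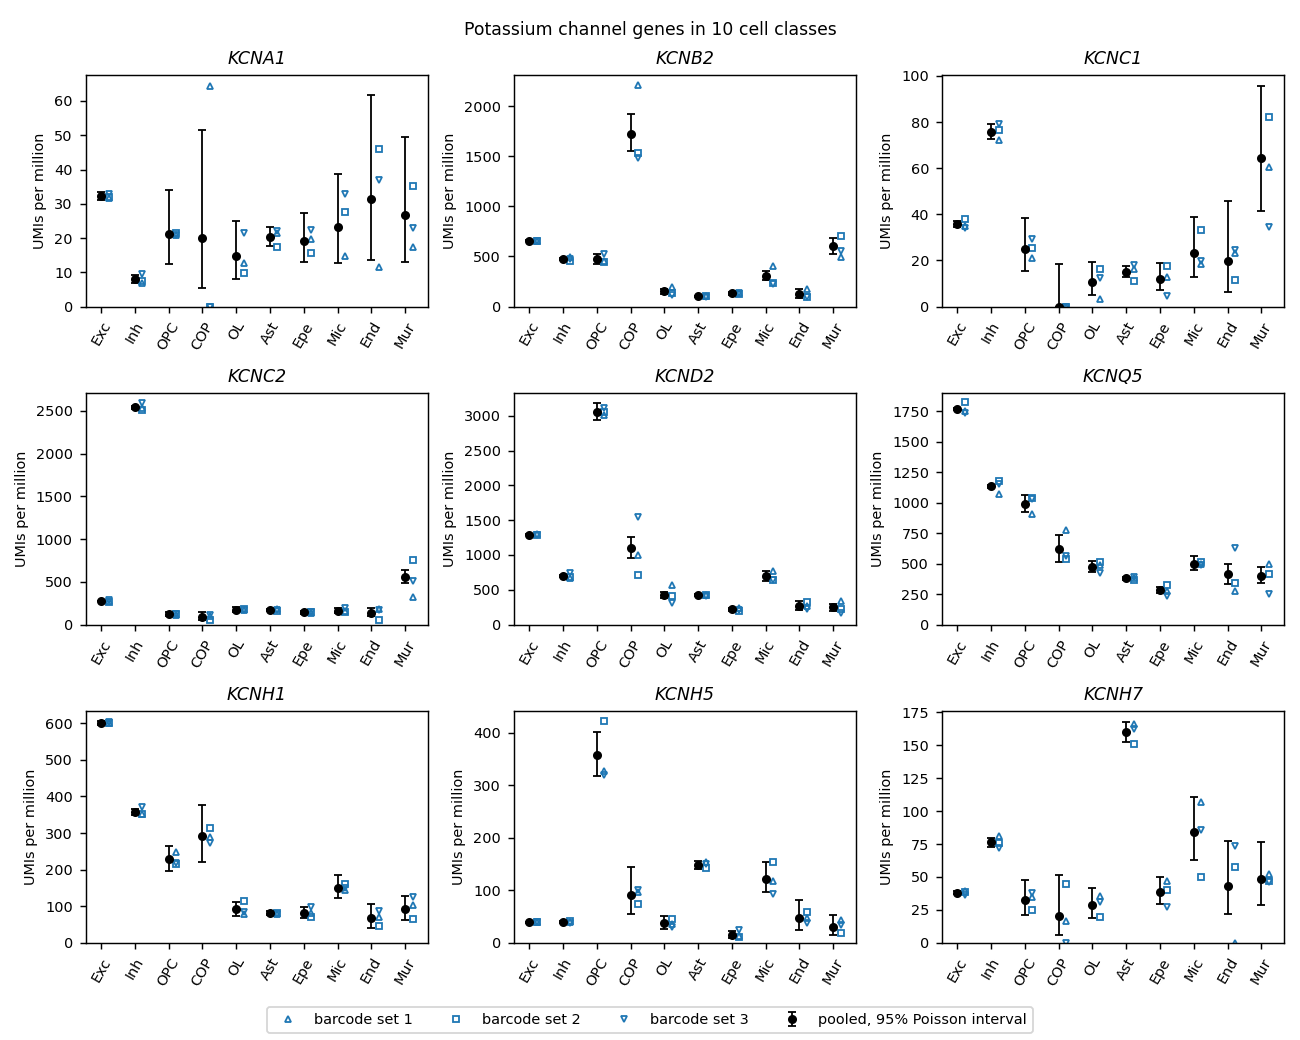
Level of each of the 9 channel genes in the 10 named cell classes, in CPM on linear axes from 0 (Exc and Inh, excitatory and inhibitory neurons; OPC, COP and OL, oligodendrocyte precursors, committed precursors and oligodendrocytes; Ast, astrocytes; Epe, ependymal cells; Mic, microglia; End, endothelial cells; Mur, mural cells). Filled points are the pooled level with its exact 95% Poisson interval and open symbols the 3 barcode sets, with KCNC2 highest in inhibitory neurons (2540), KCND2 and KCNH5 highest in oligodendrocyte precursors (3058 and 357) and KCNB2 highest in committed precursors (1727).

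The rest of the channel family and its auxiliary subunits were read from fixed lists, for which 26 of 31 other channel genes and 12 of 15 auxiliary genes were present. Genes that were open to the clustering are marked as such and their differences are descriptive. Of 23 other channel genes measured between the neuron classes, 4 reached 2-fold on the excitatory side and 6 on the inhibitory side, with a median log2 ratio of -0.26. Among the 10 kept out of clustering 2 and 4 did, where 8.79 and 8.39% of 7440 genes did. The higher ones were the silent-subunit genes KCNG2 (log2 2.58) and KCNV1 (2.29), which encode subunits that form no channel alone, with KCNG1 (1.72) and the ether-à-go-go relative KCNH3 (2.57), both open to clustering. The KCNV1 ratio [1.33 to 3.44] rested on 9 UMIs of inhibitory neurons. Among the lower ones were the ether-à-go-go relatives KCNH8 (-2.49) and KCNH2 (-1.97), the Shaker-type KCNA3 (-1.62) and the silent-subunit gene KCNS2 (-1.05), with KCNS3 (-1.20) open to clustering.

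Auxiliary subunits held the largest ratios. KCNIP1, a calcium-binding partner of the KCND2 channel, had 7.51 CPM in excitatory and 341 CPM in inhibitory neurons, a log2 ratio of -5.50. DPP10, another partner of that channel, had 451 CPM in excitatory and 3928 CPM in inhibitory neurons, a log2 ratio of -3.12. KCND2 itself leaned the other way by less than 2-fold. KCNAB3, a beta subunit of Shaker-type channels, was also lower in excitatory neurons (-2.26). KCNIP3 (1.52) and KCNAB2 (1.23), both open to clustering, were higher, and KCNE3, also open, rested on 178 UMIs of excitatory and 3 of inhibitory nuclei, a log2 ratio of 3.95 [2.38 to 6.24]. In all, 3 of 11 measured auxiliary genes were higher, 3 were lower, and the median was 0.17. Among the 4 kept out of clustering 0 were higher and 3 lower, where 8.79 and 8.39% of 7440 genes were.

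**Figure D2:**
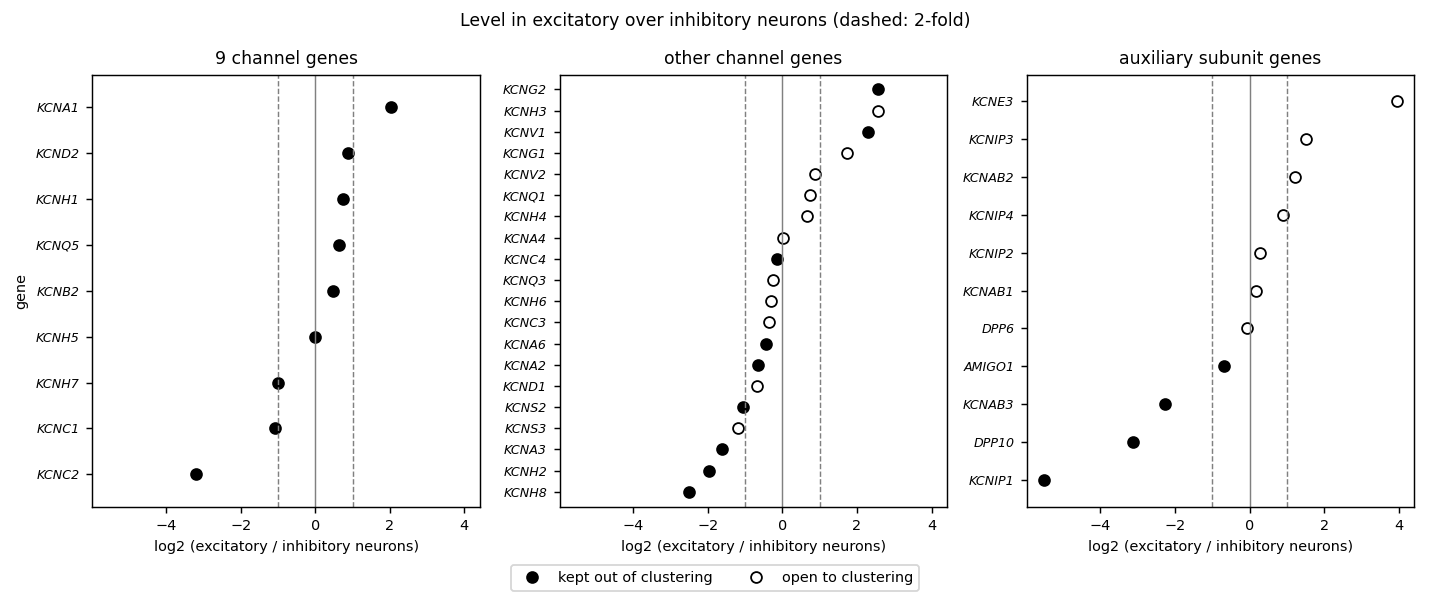
Log2 ratio of the level in excitatory over inhibitory neurons for the 9 channel genes and for the other channel genes and auxiliary subunit genes reported; dashed lines mark 2-fold and open points genes that the clustering could use. The points run from KCNIP1 at -5.50 to KCNE3 at 3.95, with KCNC2 (-3.19) at the low end and KCNA1 (2.02) at the high end of the 9 genes.

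Against the mean of the 8 glial, vascular and ependymal classes, neurons were at least 2-fold higher in 4 of the 9 genes, where 10.1% of 7524 genes were higher, and lower in 1, where 21.5% were lower. The neuron level pooled the UMIs of both neuron classes, 95017178 of excitatory and 24725565 of inhibitory neurons, so it lay nearer the excitatory level. The other classes counted equally in their mean. KCNH1 had 551 CPM in neurons and 135 CPM on average in the other classes, a log2 ratio of 2.03. KCNC2 (log2 1.93), KCNQ5 (1.69) and KCNC1 (1.05) were the other higher genes. For KCNC2 and KCNC1 the highest class was inhibitory neurons, at 2540 and 75.9 CPM. Excitatory neurons, at 278 and 35.7 CPM, were below mural cells, at 561 and 64.4 CPM. Over the processing alternatives the KCNC1 ratio ran from 0.87 to 1.36. KCNH5 was the lower one, at 38.8 CPM in neurons and 106 CPM on average in the other classes, a log2 ratio of -1.45 with -1.42, -1.55 and -1.36 in the sets. Precursors (357 CPM), astrocytes (149), microglia (122) and committed precursors (90.6) were above neurons. Oligodendrocytes (37.0 CPM), mural (29.5) and ependymal cells (15.3) were not, and endothelial cells had 47.0 CPM [24.3 to 82.2]. KCNB2, KCND2, KCNA1 and KCNH7 stayed within 2-fold.

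Among other channel genes 7 of 23 measured were higher in neurons and 3 were lower. Of the 10 kept out of clustering 3 were higher and 1 lower, where 10.1 and 21.5% of 7524 genes were. The 7 higher ones included the silent-subunit genes KCNV1 (1.63) and KCNG2 (1.46), and, open to clustering, KCNH3 (2.14), the M-current gene KCNQ3 (1.17) and KCNH4 (1.08). The KCNV1 ratio rested on 8 UMIs outside neurons and was 1.76, 5.11 and 0.71 in the sets. KCNQ3 was higher still in microglia, at 1854 CPM [1747 to 1966], beside 880 CPM in excitatory and 1052 CPM in inhibitory neurons. The lower ones included KCNH8 (-2.11) and KCNH6 (-1.06, open to clustering), which rested on 16 UMIs outside neurons and was at 0.04 in barcode set 3. Of 12 auxiliary genes 4 were higher, all open to clustering, KCNAB2 (1.91), KCNE3 (1.52, on 4 UMIs outside neurons), KCNAB1 (1.44) and KCNIP4 (1.33). KCNE4 (-3.67) and KCNIP1 (-1.16) were lower, among 5 auxiliary genes kept out of clustering, where 21.5% of 7524 genes were lower. KCNIP1 was at 7.51 CPM in excitatory neurons. In inhibitory neurons it had 341 CPM, above the 170 CPM that the other classes had on average.

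Each class was then set against the mean of the other 9 classes, and 8 of the 9 genes were at least 2-fold higher in some class (KCNC1 in 2 of them), where 47.7% of 7705 measured genes were. None of the 9 was so in oligodendrocytes, microglia, endothelial or ependymal cells, where 6.68, 8.46, 16.6 and 13.5% of measured genes were. Excitatory neurons carried 2 such genes, where 9.23% of measured genes were higher. KCNH1 had 602 CPM in excitatory neurons and 160 CPM in the other classes, 3.76-fold, and KCNQ5 had 1771 CPM and 577 CPM, 3.07-fold. Both genes came next in inhibitory neurons, at 358 CPM for KCNH1 and 1134 CPM for KCNQ5, and in both cases the 2 neuron classes did not overlap across the barcode sets.

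Inhibitory neurons also carried 2 genes, where 7.82% were higher. KCNC2 was 12.4-fold above the mean of the other classes, and KCNC1 3.32-fold. Mural cells stood out beside them. KCNC1 had 64.4 CPM there on 24 UMIs, 2.67-fold above the other classes, where 9.05% of genes were higher, but the fold was 1.57 with nuclei weighted equally and 1.55 after thinning, and 1.40 in barcode set 3. It was 1.19 on 10 UMIs with presumed doublets kept and 1.12 on 7 UMIs with all genes open to the clustering. KCNC2 in mural cells had 320, 753 and 505 CPM in the 3 sets, all above excitatory neurons, and KCNB2 had 601 CPM although only 26.2% of mural nuclei had a UMI of it. Mural cells had a median doublet score of 0.076, among the highest of the named clusters, and a summed neuron marker level of 2072 CPM, while other glial and vascular classes had 1501 to 2684 and neurons 5374 and 5512. The part of doublets in the mural values was not tested.

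KCNH7 was highest in astrocytes. It had 166, 151 and 163 CPM in astrocytes of the 3 sets, above every value in any other class, and its pooled 160 CPM [153 to 168] was 3.52-fold above the mean of the other classes, where 8.23% of genes were higher. Microglia came next at 84.2 CPM and inhibitory neurons at 76.3 CPM, which did not differ beyond their intervals. Microglia also carried more astrocyte marker RNA than any class but astrocytes, 5069 CPM summed over the list against 15918 CPM in astrocytes and 480 to 2574 CPM elsewhere. Whether that moved the microglial levels of KCNH7, KCNH5 (122 CPM) and KCND2 (698 CPM) was not tested. KCNH5 had its next level, after precursors, in astrocytes, at 149 CPM, above both neuron classes in all 3 sets.

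Oligodendrocyte precursors are dividing glia that turn through a committed stage, marked here by BCAS1 and ENPP6 among other genes, into myelin-forming oligodendrocytes, and rodent precursors are known for A-type and delayed-rectifier currents that shrink as they mature. Between oligodendrocytes and their precursors 6 of the 9 genes had enough UMIs to be measured. Oligodendrocytes had the lower level by 2-fold or more in 5 of them, where 14.7% of 2054 genes were lower, and the higher level in 0, where 13.9% were higher. The median log2 ratio was -1.48 for the 6 genes and 0.04 for all genes.

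KCND2, the A-type channel, had 3015, 3053 and 3115 CPM in precursors of the 3 sets, 1000, 716 and 1552 CPM in committed precursors, and 572, 413 and 303 CPM in oligodendrocytes. The stages followed one another without overlap. The log2 ratio of oligodendrocytes over precursors was -2.84 [-2.99 to -2.69]. Precursors were the class with the most KCND2 of all 10, 5.12-fold above the mean of the others, where 5% of genes were higher, and a UMI of it was found in 34.4% of oligodendrocytes and 96.7% of precursors. After thinning it was found in 23.5% of oligodendrocytes and 91.5% of precursors.

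KCNH5 followed the same course, with 327, 421 and 320 CPM in precursors, 96.7, 74.6 and 101 CPM in committed precursors and 35.4, 45.5 and 30.6 CPM in oligodendrocytes. The log2 ratio of oligodendrocytes over precursors was -3.27 [-3.82 to -2.76], and precursors were again the highest class, 5.66-fold above the mean of the others. The committed value rests on 18 UMIs. KCNQ5 had a shallower slope, at 990 CPM in precursors, 619 in committed precursors and 474 in oligodendrocytes, a log2 ratio of -1.06 [-1.23 to -0.89] for oligodendrocytes over precursors, which lies near the 2-fold line. Its intervals in committed precursors [515 to 739] and oligodendrocytes [431 to 520] overlapped.

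KCNB2 took another course and peaked in the middle. It had 452, 443 and 525 CPM in precursors, 2209, 1536 and 1480 CPM in committed precursors, and 196, 140 and 119 CPM in oligodendrocytes of the 3 sets. Every committed value was above every precursor value, and every precursor value above every oligodendrocyte value. The committed level of 1727 CPM [1549 to 1919], from 343 UMIs in 76 nuclei, was 5.16-fold above the mean of the other classes, where 7.81% of genes were higher, and 85.5% [75.6 to 92.5] of committed nuclei had a UMI, against 53.2% of precursors. Excitatory neurons were the next class, at 656 CPM, and the intervals did not overlap. KCNH1 had 228 CPM in precursors, 292 CPM [222 to 377] in committed precursors and 91.0 CPM in oligodendrocytes, so the first 2 stages did not differ beyond counting error. The direction recurred in all 3 sets, with 290, 313 and 273 CPM in committed precursors against 247, 216 and 219 CPM in precursors.

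KCNC2 was the exception, at 177 CPM in oligodendrocytes and 120 CPM in precursors, a log2 ratio of 0.56 [0.19 to 0.94], within 2-fold. KCNC1 had 20 UMIs in precursors, 0 in committed precursors, which allows up to 18.6 CPM, and 10 in oligodendrocytes. It was too thinly covered to be compared, as were KCNA1 and KCNH7. When presumed doublets were kept, a setting in which clusters were named whatever their doublet score, a further cluster of 256 nuclei was named oligodendrocytes, with a median doublet score of 0.155 and a median of 5583 UMIs, and the log2 ratios became -0.27 for KCNB2, -0.33 for KCNH1 and -0.61 for KCNQ5, which ended those 3 calls. KCND2 (-1.86) and KCNH5 (-2.06) stayed lower, and KCNH7 became measured at 1.55.

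**Figure D3:**
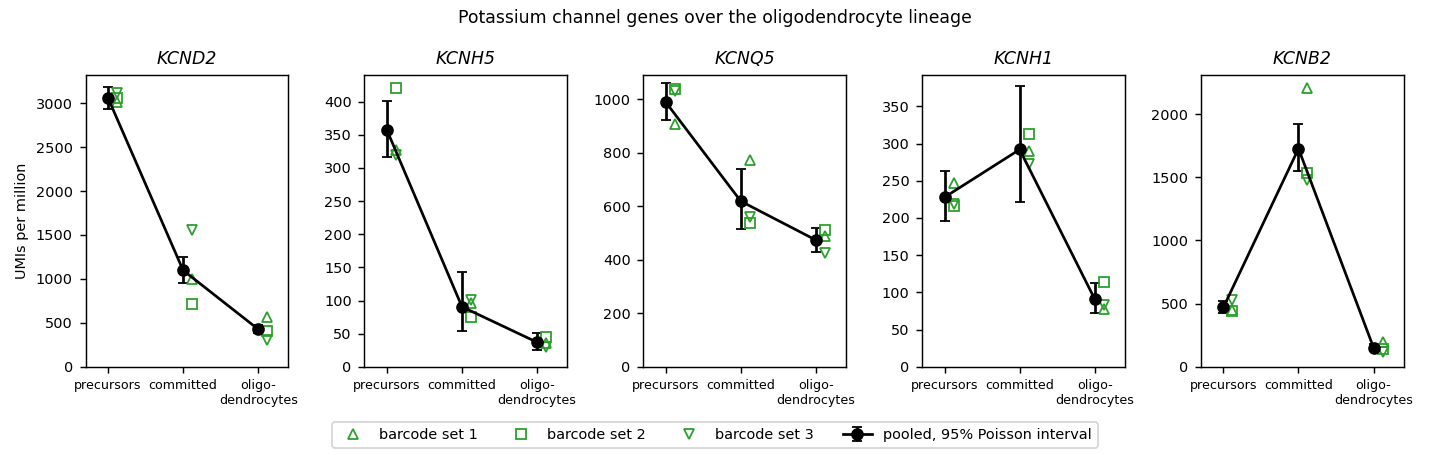
Level of 5 channel genes in oligodendrocyte precursors, committed precursors and oligodendrocytes, in CPM; black points are pooled levels with exact 95% Poisson intervals and open symbols the 3 barcode sets. KCND2, KCNH5 and KCNQ5 step down over the stages, while KCNB2 peaks in committed precursors at 1727.

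The partners of these channels were lower in oligodendrocytes as well. In the 6 auxiliary genes measured, oligodendrocytes lay below precursors by 2-fold or more, KCNIP1 (log2 -2.72), DPP10 (-1.73), and, open to clustering, DPP6 (-2.70), KCNIP3 (-1.70), KCNIP4 (-1.22) and KCNAB1 (-1.18). Of 5 other channel genes measured 4 were lower, among them KCNQ3 (-1.89) and KCNQ1 (-1.20), both open to clustering. Of measured list genes kept out of clustering, 2 of 2 auxiliary and 1 of 2 other channel genes were lower, where 14.7% of 2054 genes were. KCNH8 was within 2-fold between the ends of the lineage, at 313 CPM in oligodendrocytes and 291 CPM in precursors. Committed precursors had less of it, 101 CPM [61.5 to 155] on 20 UMIs.

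Re-clustering gave 13 excitatory sub-clusters, numbered E1 to E13, and 12 inhibitory ones, I1 to I12, in falling order of size. They are described by the highest of a fixed list of marker genes, which the clustering could use, and are given no type name. KCNC2 was the gene whose excitatory and inhibitory ranges did not overlap, at 25.7 CPM (E9, high in RGS14) to 588 CPM (E10, high in UGT8 and CARTPT) in excitatory and 1177 CPM (I4, high in CRH) to 4073 CPM (I12, high in HTR1F and LHX6) in inhibitory sub-clusters. KCNA1 was above the highest inhibitory sub-cluster, 19.5 CPM in I4, in 11 of 13 excitatory sub-clusters. KCNC1 was below the lowest inhibitory sub-cluster in 10 of 13. The share of all measured genes set apart in these ways was not computed, so whether such separations are unusual was not tested. The 3 excitatory sub-clusters with more KCNC1, E1, E2 and E5 at 50.3 to 56.1 CPM, all came from the PROX1-high cluster.

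**Figure D4:**
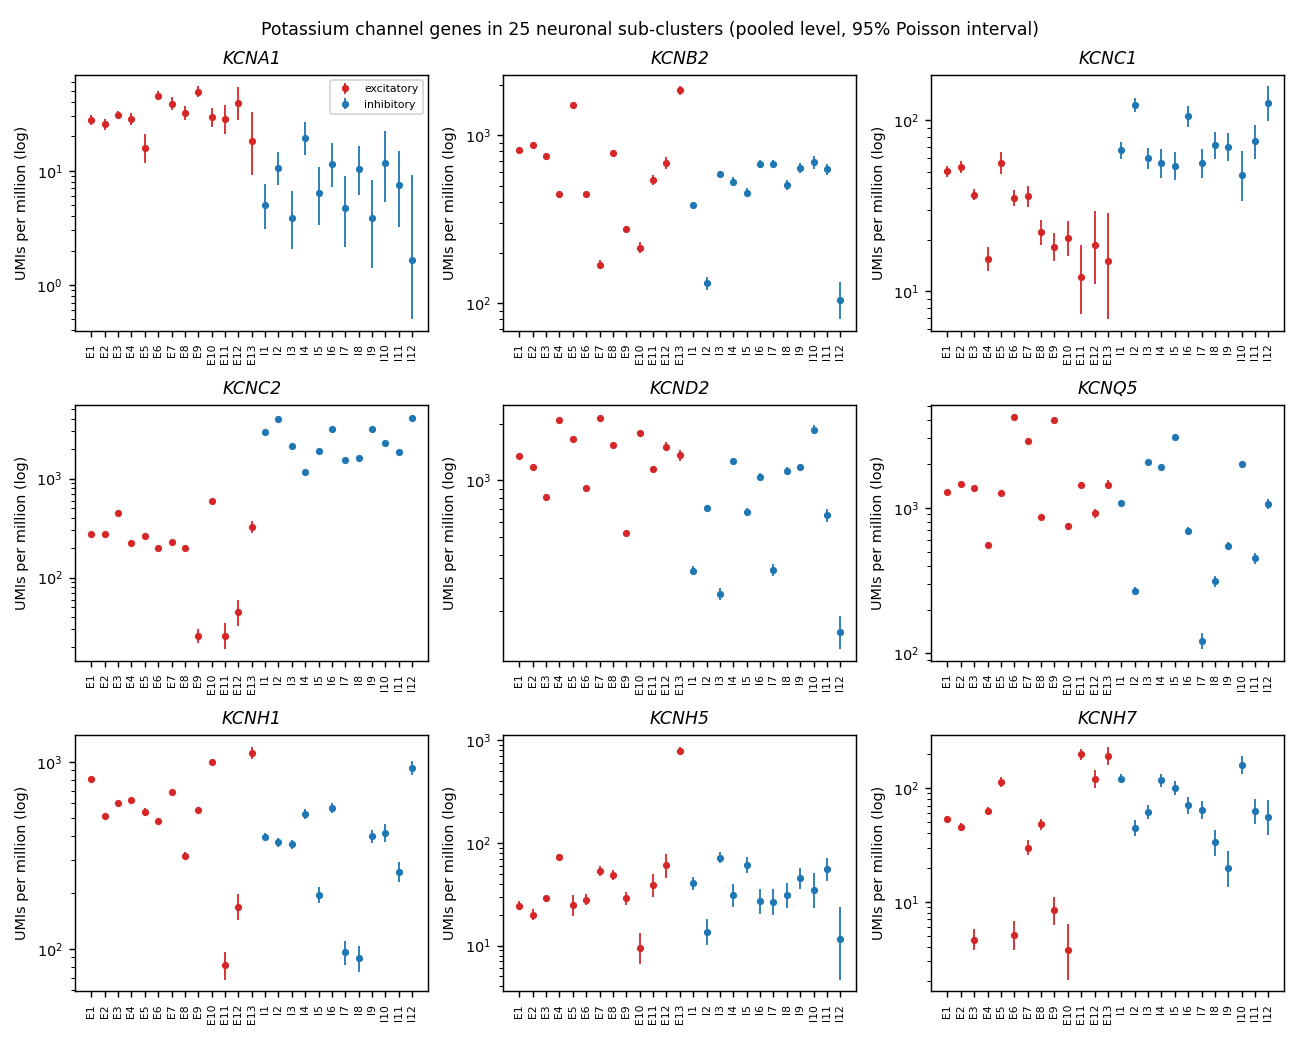
Level of each channel gene in the 13 excitatory and 12 inhibitory sub-clusters, in CPM on a log axis with exact 95% Poisson intervals. KCNC2 is the one gene whose 2 sets of points are apart, and KCNH5 has a single high point, E13, at 791; the interval of KCNA1 in I12, which rests on 1 UMI, is cut at the lower edge.

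Within excitatory neurons 7 of the 9 genes reached 2-fold over the other sub-clusters' mean level somewhere, where 27.6% of 7308 genes did. The sharpest was KCNH5 in E13, 73 nuclei high in HTR1F and TSHZ2. It had 749, 856 and 767 CPM there in the 3 sets, against a mean of 36.5 CPM in the other 12 sub-clusters, whose highest was E4 at 72.2 CPM. E13 stood apart in every set, at 20.4-, 23.4- and 20.6-fold, and 21.7-fold pooled. A UMI of KCNH5 was found in 98.6% of its nuclei. Other clusterings gave 17.7- to 22.1-fold in the sub-cluster that held these nuclei.

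E13 was high in other channels too. KCNB2 was at 1847 CPM [1740 to 1959], 2.95-fold above the other sub-clusters and highest of the 13, KCNH1 at 1118 CPM, 2.10-fold and also highest, and KCNH7 at 194 CPM, 3.35-fold. For KCNH1 the fold was 1.84 in barcode set 3, and in other clusterings it was 1.89 with presumed doublets kept, 1.81 at resolution 1 and 1.97 with all genes open to the clustering. KCNH7 was similarly high in E11, 139 nuclei high in GPC5 and NR4A2, at 252, 202 and 165 CPM in the sets and 3.48-fold pooled. At the other end, KCNH7 was at 3.8 to 8.4 CPM in E3, E6, E9 and E10, all below the lowest inhibitory sub-cluster, so its excitatory levels spanned 52.9-fold. E11 was the low end for KCNH1, at 81.7 CPM.

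KCNQ5, the M-current gene, was highest in E6 (NECTIN3-high), at 4211, 4272 and 4111 CPM in the 3 sets, and in E9, at 4190, 3849 and 4028 CPM. These were 2.77- and 2.62-fold above the mean of the others, and E7, the next, had 2858 CPM. KCND2 ran lowest in the same E9, at 520 CPM, and over the 13 sub-clusters KCND2 and KCNQ5 had a Pearson r of -0.62. KCND2 and KCNA1 were the 2 genes with no excitatory sub-cluster at 2-fold, and KCND2 ranged up to 2165 CPM in E7.

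KCNC2 was 2.79-fold above the others in E10 and 2.02-fold in E3 (NECTIN3-high), a value at the threshold that was under 2-fold in 2 of 6 alternatives. KCNB2 was 2.30-fold higher in E5, a PROX1-high sub-cluster of 873 nuclei, and lowest in E7, at 169 CPM. KCNC1 was 2.02-fold higher in E5, likewise at the threshold, and in 3 of 4 other clusterings its highest sub-cluster, mainly of E2 nuclei, was at 1.75- to 1.91-fold. KCNC2 was lowest in E9, E11 and E12, at 25.7, 26.0 and 44.6 CPM, below its level in every glial class.

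Within inhibitory neurons 6 of the 9 genes reached 2-fold in 1 sub-cluster or more, where 20.9% of 6107 genes did. KCNQ5 was 3.18-fold higher in I5, high in LAMP5 and RELN, at 2876, 3265 and 2922 CPM in the sets, and its lowest was I7, high in NPY and SST, at 122 CPM. I8, also high in SST, had 314 CPM and I2, high in SOX6, had 270 CPM. KCNH1 shared that low end, with 95.8 CPM in I7 and 88.9 CPM in I8, and was 2.78-fold higher in I12, at 930 CPM. With all genes open to the clustering its highest sub-cluster, mainly of I6 nuclei, was at 1.94-fold.

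I10, high in TSHZ2 and NR2F2, was 2.67-fold higher in KCND2, at 1840, 1753 and 2010 CPM in the sets. The inhibitory sub-cluster with the most KCND2 was mainly of I8 nuclei with presumed doublets kept, at 1664 CPM. In another clustering it held only I8 nuclei, at 1730 CPM. At resolution 1 it was mainly of I10 nuclei, at 1857 CPM. With all genes open to the clustering 55.7% of its nuclei were from I10. I10 was also 2.33-fold higher in KCNH7, at 160 CPM on 123 UMIs. In other clusterings the inhibitory sub-cluster with the most KCNH7 was made up mainly of I1 or I4 nuclei, at 1.74-fold with presumed doublets kept and 2.02- to 2.39-fold in 3 others. KCNA1 was 2.78-fold higher in I4, high in CRH, on 38 UMIs. KCNH5 was 2.09-fold higher in I3, high in CNR1, but 1.74-fold after thinning, and with all genes open to the clustering the highest sub-cluster, mainly of I9 nuclei, was at 1.88-fold. I12 and I2, both with LHX6 and SOX6 among their leading markers, had the most KCNC2 (4073 and 3951 CPM) and KCNC1 (126 and 123 CPM) and the least KCNB2 (104 and 131 CPM). I12 had also the least KCND2, at 154 CPM.

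**Figure D5:**
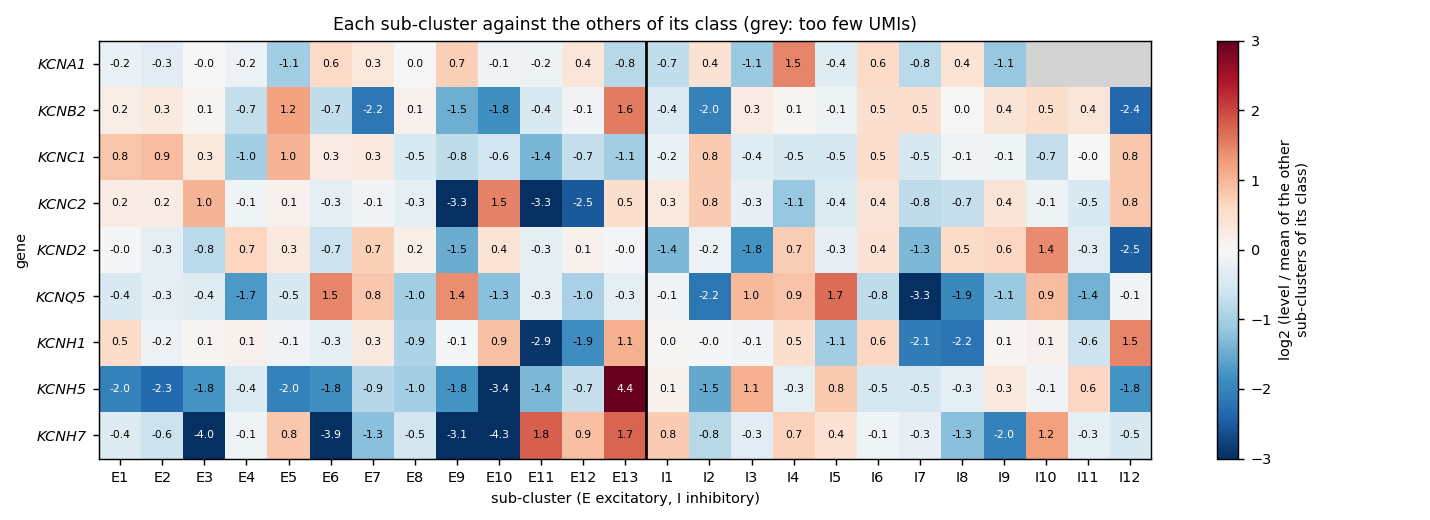
Log2 ratio of each channel gene in each sub-cluster to the mean of the other sub-clusters of the same neuron class, with the value printed in each cell; colours stop at 3 in either direction and grey marks too few UMIs. The highest ratio is KCNH5 in E13, 21.7-fold, and KCNH7 is low in E3, E6, E9 and E10, at 3.8 to 8.4 CPM.

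Counted over the lists, 11 of 23 other channel genes and 7 of 11 auxiliary genes reached 2-fold in an excitatory sub-cluster, and 6 of 19 and 5 of 10 did so in an inhibitory one. Of those kept out of clustering, 8 of 10 and 4 of 4 did so in an excitatory one, where 27.6% of 7308 genes did. In an inhibitory one 2 of 9 and 3 of 4 did, where 20.9% of 6107 genes did. List genes that the clustering could use are counted but not named. KCNH8 was 12.2-fold higher in E9, the sub-cluster low in KCNC2 and KCND2, where KCNG2 was 2.8-fold higher. In E12, high in TLE4 and FOXP2, KCNIP1 was 29.5-fold and DPP10 13.4-fold above the other excitatory sub-clusters, at 259 and 7930 CPM, beside 341 and 3928 CPM in inhibitory neurons as a whole, and KCNA6 was 2.2-fold higher. KCNA3 was 3.0-, 2.7- and 2.5-fold and KCNC4 3.0-, 2.5- and 2.9-fold higher in E1, E2 and E5. KCNIP1 (2.4-fold) and KCNAB3 (4.5-fold, on 14 UMIs) were higher in E11 and DPP10 (2.1-fold) in E13, with KCNV1 in E8, AMIGO1 in E5 and KCNH2 and KCNS2 in E10 at 2.0- to 2.1-fold on 11 to 33 UMIs.

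Among inhibitory sub-clusters DPP10 was 4.6-fold higher in I12, at 14016 CPM, and 2.0-fold in I2. KCNH8 was 3.3-fold higher in I11, 2.6-fold in I4 and 2.5-fold in I8. KCNIP1 was 2.7-, 2.0- and 2.1-fold higher in I5, I7 and I8. KCNAB3 in I10 (2.6-fold) and I11 (2.0-fold), and KCNS2 in I4 (2.3-fold) and I5 (2.7-fold), rest on 10 to 20 UMIs each.

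Over the 25 sub-clusters the patterns of the 9 genes were compared as log2 CPM with 5 CPM added. The points come from the same libraries and share depth and free RNA, so each r is a description. KCNC1 and KCNC2 ran together (r = 0.83 over all, 0.48 over the 13 excitatory and 0.74 over the 12 inhibitory sub-clusters), and KCNA1 and KCNC2 ran opposite (-0.85, and -0.45 and -0.44 within the classes). KCNB2 ran against KCNC1 over inhibitory sub-clusters (-0.74), KCNA1 with KCND2 there (0.78), and KCNC2 with KCNH1 over excitatory ones (0.74).

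The genes with the most similar pattern among 6422 ranked were CDC40, F11R and LINGO1 for KCNA1 (r 0.91, 0.90 and 0.90), FSD1L, PLPPR1 and C12orf42 for KCNB2 (0.85, 0.78 and 0.75), and MSANTD2, SAR1B and CHD1 for KCNC1 (0.92, 0.88 and 0.87). For KCNC2 they were SEC31B, GATAD1 and VWA8 (0.94, 0.90 and 0.90), for KCND2 RIIAD1, DUSP11 and TEX2 (0.80, 0.74 and 0.73), and for KCNQ5 GPR171, MED12L and P2RY14 (0.73, 0.73 and 0.72). For KCNH7 they were MATR3, ATIC and HES6 (0.89, 0.81 and 0.79). KCNH1 had SEMA6B, PLXNA4 and the unnamed row ENSMMUG00000046492 (0.75, 0.74 and 0.68), and KCNH5 had ARMC9, VTCN1 and ENSMMUG00000031310 (0.78, 0.78 and 0.76).

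In single nuclei thinned to 1000 UMIs, pairs of the 9 genes were found together about as often as the product of their single shares. Over the 54 pairs of the 2 neuron classes with at least 50 nuclei positive for both, the ratio ran from 0.79 to 1.16. The lowest was KCNH1 with KCNH7 in excitatory neurons, at 1.40% [1.19 to 1.63] of nuclei beside a product of 1.78%. The highest was KCNQ5 with KCNH5 in inhibitory neurons, at 2.25% [1.82 to 2.75] beside 1.95%.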

How the data were processed

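The authors deposited raw UMI counts per gene and nucleus, in 1 table, which all were whole numbers. They used fastp and Cell Ranger 3.0.0 with the build GRCh38, per the submitters' processing notes. Macaque Ensembl identifiers on 5142 rows leave unsettled which build was counted, so no coordinates or sequences are given. Per the labels' protocols, about 15000 nuclei were loaded per channel for an expected 9000, with a 10x Genomics 3′ kit and 150 bp paired-end reads. Levels are those of nuclear RNA read near transcript 3′ ends, so levels are compared between cells and not between genes.

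The 9 genes, the lists and the markers were chosen with earlier results of these data known. Clustering did not use 9794 genes, the 9 among them and the rest picked by name hash, but could use the markers, of which 120 of 128 were present. Nuclei with the highest doublet scores within each barcode set, 0.8% per 1000 nuclei, were left out (1862), which kept 24538. Scores were computed in the manner of Scrublet, with 2 simulated doublets per nucleus. Each nucleus was scaled to 10000 counts and logged. From 2000 variable genes, 30 principal components and 15 neighbours, Leiden clustering at resolution 0.5 produced 19 clusters, with batches uncorrected, in scanpy 1.11.5 with scikit-learn 1.9.0 and igraph 0.11.9. Neurons were clustered again in the same way.

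Thresholds for names followed a look at the data. A cluster was called inhibitory above 300 CPM of GAD1 plus GAD2, and excitatory above 75 CPM of SLC17A7, 45 of SV2B and 600 of RBFOX3. Any further class required its markers to average over 2.5 in log2 ratio, with 5 CPM added, and to lead the next class by 1. Unnamed clusters of at least 200 nuclei were split once. A cluster far shallower than the pool also stayed unnamed when none of that class's markers was among its top genes. Clusters of 95 and 20 nuclei, with medians of 1044 and 783 UMIs, met the excitatory and the inhibitory levels and stayed unnamed. Clusters with a median doublet score over 0.1 would have stayed unnamed, a rule that kept out 0 nuclei and was not applied where presumed doublets were kept.

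A gene was measured with at least 50 UMIs on either side and 10 expected on each side at the higher level. A count of 0 was set to a floor of 3 counts in ratios. Sub-clusters needed 20 nuclei in each barcode set. The calculation was checked on simulated counts. All 9 genes are named, and genes of the 2 lists where they reached 2-fold, except that some list genes are counted but not reported here, and that list genes open to clustering are only counted between sub-clusters. For likeness, the 3 genes of highest r with at least 200 UMIs and kept out of clustering are named. Shares have exact Clopper-Pearson intervals.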

Additional observations from a re-analysis of the deposited data

Results flagged for a closer look

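The channel genes also gave signal in nuclei that no comparison used. An unnamed cluster of 81 nuclei, with precursor markers at a mean log2 ratio of 2.55 and a lead over the next class of only 0.21, held 608 UMIs of KCND2, 221 of KCNQ5, 204 of KCNB2, 107 of KCNH5, 63 of KCNH1, 58 of KCNC2, 17 of KCNH7, 7 of KCNC1 and 4 of KCNA1. Its level of KCNH5 was 346 CPM, beside 357 CPM in precursors, and its level of KCNB2 was 659 CPM, between the 1727 CPM of committed precursors and the 471 CPM of precursors. Its median doublet score was 0.090.

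A second unnamed cluster, of 23 nuclei with 15921 CPM of MBP and 4041 CPM of BCAS1, held 46 UMIs of KCND2, 40 of KCNQ5, 24 of KCNB2, 20 of KCNH5, 5 of KCNC2 and 5 of KCNH1. Its median doublet score was 0.080. In each of these clusters a gene had more UMIs than the 3 that a count of 0 allows. The unnamed cluster of 500 shallow nuclei met that rule too, with 301 UMIs of KCNQ5, and is described above for KCNC2 only. Doublets were not tested as a source.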

How the results depend on the processing

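Over 13 alternatives 105 of 114 counts stayed within 1.5 times their value and 0 of 315 ratios of the 9 genes reversed a call. Of the 3 genes lower in excitatory than in inhibitory neurons 1 (KCNC2, log2 -3.20 to -3.10) was left with nuclei weighted equally, 1 after thinning and 1 at a 3-fold threshold. That threshold left 3 genes lower in oligodendrocytes than in precursors, 0 lower in neurons than in other classes, and 1 gene in inhibitory and 2 in excitatory sub-clusters. With presumed doublets kept, 2 genes were lower and 1 higher in oligodendrocytes than in precursors, of 8 measured. By its construction that setting adds the 256 nuclei described above.

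Leaving out each barcode set in turn gave 2 to 3 genes lower in excitatory neurons (KCNH7 was at -0.99 without barcode set 1), 4 to 5 lower in oligodendrocytes (KCNQ5 was at -0.96 without barcode set 3), 6 to 7 in inhibitory and 6 to 7 in excitatory sub-clusters. No paired analysis was possible because the barcode sets carry no replicate number. Depth limits KCNA1, KCNC1 and KCNH7 in the lineage, where no class held more than 27 UMIs of any of them. Without samples, spread between animals is unknown.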
